A study of Mus musculus with 18 samples.

Results

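Of the Hoxa genes read in blood stem cells and their DNA-binding partners, 7 were followed across all 18 libraries of this series: Hoxa3, Hoxa5, Hoxa7, Hoxa9, Hoxa10, Meis1 and Pbx3. The genes were taken by name from a count table of 24421 gene symbols, and all 7 passed the filter on low values that left 12808 genes for testing. The libraries came from RNA of hematopoietic stem cells (HSCs) of Hoxb5-tri-mCherry mice, a C57BL/6J reporter strain in which mCherry marks cells that express Hoxb5. HSCs were sorted into mCherry-positive cells, called LT-HSCs for long-term repopulation, and mCherry-negative cells, called ST-HSCs for short-term repopulation. The remaining fraction, bulk-HSCs, was the HSC gate as a whole and so held both kinds of cell. Each fraction was taken from young mice (2 to 3 months) and aged mice (23 to 25 months), with 3 libraries in each of the 6 groups, and all groups carried the reporter allele. The sources used here do not say whether the 3 libraries of a group came from separate mice, or whether mice were pooled, so p-values measure the spread between these libraries. Nor do they say whether libraries of different fractions came from the same mice, and the main tests treat all libraries as independent. In the sorted populations fewer cells of a type and less RNA per cell cannot be told apart.

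Hox proteins are homeodomain transcription factors laid out in clusters, and the order of the genes along a cluster follows the order of their expression along the body axis. On DNA they bind with partners of the TALE class of homeodomain proteins, which includes the Pbx family (PBC class) and the Meis family. Pbx proteins contact Hox proteins and sharpen their choice of site, while Meis proteins bind Pbx or posterior Hox proteins and help retain the complex in the nucleus. In the blood system Hoxa9 and Meis1 are known for their high expression in HSCs and early progenitors, for the self-renewal defects that follow their loss, and for driving leukemia when they stay on. Pbx3 is known as a partner of Hoxa9 in leukemias with rearranged Kmt2a.

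The 5 Hoxa members lie on the minus strand of chromosome 6 (mm10, GENCODE M21), between the start of Hoxa3 at 52169062 and the end of Hoxa10 at 52240854. Meis1 lies on the minus strand at chr11:18879817-19018985 and Pbx3 on the minus strand at chr2:34171457-34373142. The proximal promoters of 3 members are printed to show how they differ: that of Hoxa3 held the single cofactor motif found, that of Hoxa9 had the lowest GC content, and Meis1 is the most abundant member. Each runs 5′ to 3′ on the gene's strand from 250 bases before the RefSeq start to 50 bases after it (GRCm38.p6). The windows are chr6:52213018-52213317 for Hoxa3, chr6:52227321-52227620 for Hoxa9 and chr11:19018920-19019219 for Meis1. Capitals mark the Meis half-site TGACAG, here read on the opposite strand.
Hoxa3: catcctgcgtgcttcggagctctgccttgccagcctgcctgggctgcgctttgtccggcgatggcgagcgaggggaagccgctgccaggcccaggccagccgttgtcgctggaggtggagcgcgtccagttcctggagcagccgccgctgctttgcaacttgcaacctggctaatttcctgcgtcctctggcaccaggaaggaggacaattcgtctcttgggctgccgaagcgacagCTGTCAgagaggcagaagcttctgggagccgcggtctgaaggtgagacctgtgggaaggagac
Hoxa9: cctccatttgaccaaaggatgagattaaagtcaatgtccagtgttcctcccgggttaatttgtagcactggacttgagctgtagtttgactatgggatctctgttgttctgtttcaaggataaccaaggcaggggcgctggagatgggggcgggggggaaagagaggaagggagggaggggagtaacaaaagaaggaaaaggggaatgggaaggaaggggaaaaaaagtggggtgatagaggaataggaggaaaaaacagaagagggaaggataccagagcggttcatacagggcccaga
Meis1: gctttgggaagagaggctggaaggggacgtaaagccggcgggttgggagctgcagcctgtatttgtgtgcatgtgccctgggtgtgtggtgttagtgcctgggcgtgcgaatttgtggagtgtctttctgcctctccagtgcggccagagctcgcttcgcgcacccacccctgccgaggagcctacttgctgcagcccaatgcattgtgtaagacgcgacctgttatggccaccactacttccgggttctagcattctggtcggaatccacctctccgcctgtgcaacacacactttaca
The 3 motifs searched on both strands were TGACAG (Meis half-site), TGATTNAT (Hox and Pbx composite) and the joined Pbx and Meis composite site, which contains the half-site. Of the 7 promoter windows found for 6 members (Hoxa10 has 2), the Hoxa3 window alone held a match, 1 TGACAG on the minus strand of the window. Among all 32851 RefSeq promoter windows of that length, 19.2% held TGACAG, 3.22% held TGATTNAT and 0.222% held the Pbx and Meis composite. GC content was 64.0% for Hoxa3, 61.7% for Hoxa5, 58.3% for Meis1, 55.7% for Hoxa7 and 49.7% for Hoxa9, beside a median of 52.7% over all promoters. The Hoxa5 window held 29 CpG dinucleotides and the Hoxa9 window 4, beside a median of 7. Pbx3 had no promoter entry in that table. The RefSeq starts used for Hoxa3, Hoxa7, Hoxa9 and Meis1, and 1 of the 2 for Hoxa10, fall inside the longer GENCODE gene spans. Each of these windows thus describes 1 start of its gene.

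The microRNA gene Mir196b sits inside the span of Hoxa9 on the same strand, where its 85 bases overlap exons of Hoxa9, and its mature products are shown because reads of both genes come from the same bases. Capitals mark the seed, bases 2 to 8. Both arms are given on the minus strand of GRCm38.p6, at chr6:52230129-52230150 for the 5p arm and chr6:52230094-52230115 for the 3p arm.
miR-196b-5p: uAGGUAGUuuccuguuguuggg
miR-196b-3p: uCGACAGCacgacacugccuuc
The table listed 248 counts for Mir196b over all 18 libraries against 28091 for Hoxa9. These libraries were made from total RNA and do not measure the mature microRNA.

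The libraries held 16495048 to 22973844 counts, so that 3 counts correspond to 0.132 to 0.176 CPM (counts scaled to a common library size). CPM is adjusted here by TMM factors of 0.951 to 1.03. Summed CPM of 10 HSC markers was 3299 to 4508 in every library. Hoxb5 was 40.3, 8.77 and 8.20 CPM in the young LT-HSC libraries against 3.83, 2.40 and 0 in young ST-HSCs, and 18.4, 24.6 and 26.0 in aged LT-HSCs against 4.56, 1.68 and 0.40 in aged ST-HSCs, so the LT-HSC libraries were above the ST-HSC libraries at each age. The number of genes with at least 1 count was 11548 to 13876 in young libraries (median 12492) and 13526 to 14133 in aged libraries (median 13701). Young LT-HSC library 3 and young ST-HSC library 3 stood apart. Of 9653 genes whose median count was 200 or more, they had a count of 0 for 163 and 160. The other young libraries had 1 to 67 such genes and the aged ones 2 to 6. Summed markers of other cells reached at most 19.8 CPM for neutrophils and monocytes, 57.8 CPM for erythroid cells and 29.2 CPM for B cells. Mpo of the first list and the B cell markers Ebf1, Pax5 and Ms4a1 were at 0 in every library. The B cell marker Cd79b was read in every library, at 10.6 to 29.2 CPM, and the monocyte marker Csf1r ran from 0 to 5.78 CPM.

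Age was compared within each fraction and as the mean of the 3 within-fraction effects, and Pbx3 was the single member that passed the test. Pbx3 encodes a PBC-class homeodomain protein. It measured 15.2, 19.4 and 15.9 CPM in young LT-HSCs and 67.3, 53.0 and 37.9 CPM in aged LT-HSCs. In ST-HSCs it measured 22.1, 20.5 and 3.35 CPM when young and 47.3, 34.0 and 52.5 CPM when aged. In bulk-HSCs it measured 14.5, 11.2 and 7.75 CPM when young and 34.9, 36.1 and 42.2 CPM when aged. The 9 young libraries ranged from 3.35 to 22.1 CPM and the 9 aged libraries from 34.0 to 67.3 CPM, so the 2 ages did not overlap in any fraction or between fractions. The lowest young value belonged to ST-HSC library 3, 1 of the 2 libraries with many missing genes. Averaged over fractions, Pbx3 was 3.13-fold higher in aged HSCs (95% interval 2.12 to 4.64), a log2 fold change of 1.65 ± 0.27 (SE; edgeR quasi-likelihood test, adjusted p = 0.000855). An exact permutation test of age within fractions gave a two-sided p of 0.00025, which is the smallest its 8000 arrangements allow. Across all genes 6.75% passed the averaged test, 864 of 12808, of which 556 were higher in aged cells. Pbx3 was also the single member of 7 whose aged and young libraries did not overlap over all 18 libraries, against 1.17% of all genes.

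Within single fractions the Pbx3 difference was of like size, at 1.65 ± 0.47 for LT-HSCs, 1.54 ± 0.46 for ST-HSCs and 1.76 ± 0.47 for bulk-HSCs (log2, SE). None of these passed edgeR's adjusted test (adjusted p = 0.173, 0.155 and 0.0655), while each had an unadjusted edgeR p below 0.05 (0.00241, 0.00388 and 0.00148). With 3 libraries against 3 an exact permutation test cannot go below p = 0.1, the value Pbx3 reached in each fraction. DESeq2 called Pbx3 in all 3 fractions, with adjusted p = 0.0118, 0.0151 and 0.00223. Leaving out both libraries with many missing genes kept the averaged call, at 1.48 on the log2 scale (edgeR adjusted p = 7.47e-05), and gave 1.08 in ST-HSCs (edgeR adjusted p = 0.162). With the number of detected genes added to the model as a covariate, the averaged difference was 0.94 and was not called (edgeR adjusted p = 0.386), and the calls over all genes went from 864 to 153. Age and the number of detected genes overlap in these libraries, and the part of each in the Pbx3 result was not tested.

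**Figure D1:**
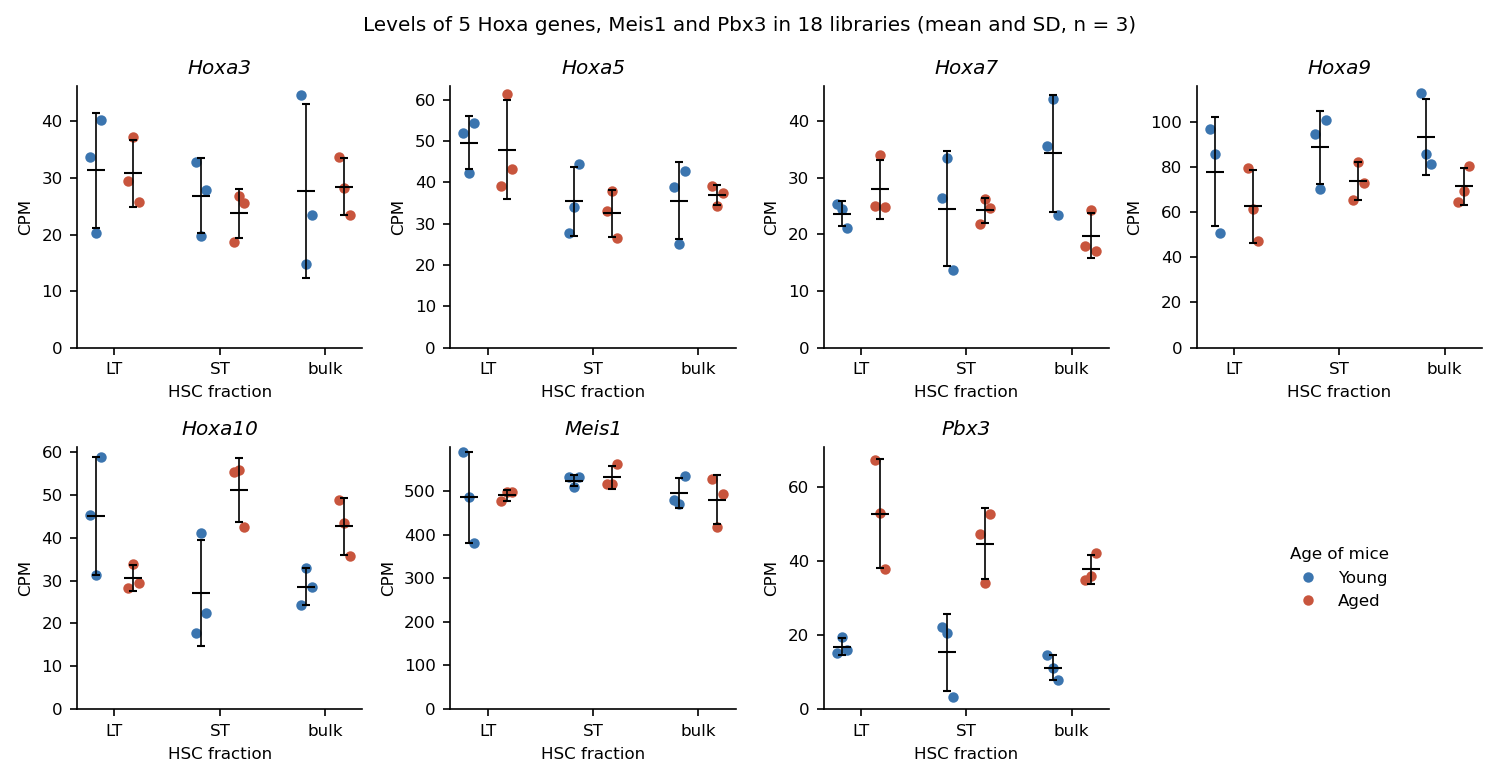
CPM (TMM-scaled, linear axes from 0) of the 7 genes in each of the 18 libraries, by fraction and age, with black marks at the mean and SD of 3 libraries. Pbx3 separated the ages in every fraction (3.35 to 22.1 CPM young, 34.0 to 67.3 CPM aged), while Meis1 stayed between 381 and 589 CPM in all libraries.

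Summed markers of some other cells differed between the ages beside Pbx3. The summed level of 7 T and NK cell markers was 2.95 to 37.5 CPM in young and 30.7 to 144 CPM in aged libraries. Of these, Klrb1c, a lectin receptor of NK cells, ran from 0.23 to 136 CPM and Lck, a T cell kinase, from 2.72 to 16.5 CPM over all libraries, and Cd3e, Cd8a and Ncr1 were at 0 in all 18 libraries. The summed level of 5 multipotent progenitor markers was 114 to 339 CPM in young and 63.7 to 149 CPM in aged libraries, with Dntt and Il7r at 0 in all. The study's gating removed lineage-positive cells and set HSCs apart from multipotent and Flk2+ progenitors. The part of these markers in the Pbx3 result was not tested.

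Meis1, the TALE cofactor that binds Hoxa9, was the most abundant member and did not pass the test in any comparison. It measured 589, 485 and 381 CPM in young LT-HSCs and 476, 498 and 497 CPM in aged LT-HSCs. In ST-HSCs it measured 531, 509 and 531 CPM when young and 516, 516 and 561 CPM when aged, and in bulk-HSCs 480, 471 and 534 CPM when young and 528, 418 and 492 CPM when aged. Both ages overlapped in every fraction. The averaged age difference was -0.0040 ± 0.072 on the log2 scale (SE; edgeR adjusted p = 0.990). The 95% interval of that ratio ran from 0.898 to 1.11. The coefficient of variation of Meis1 over all 18 libraries was 9.57%, and 11.8% of the 2152 genes that averaged 100 CPM or more varied less.

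Among the posterior Hoxa genes, Hoxa9 was the most abundant in counts. Hoxa9 encodes the homeodomain protein best known for HSC and leukemia self-renewal. It measured 97.2, 85.8 and 50.8 CPM in young LT-HSCs against 79.5, 61.3 and 47.1 CPM in aged LT-HSCs. In ST-HSCs the values were 94.8, 70.5 and 101.0 CPM when young and 65.6, 82.4 and 73.1 CPM when aged. Bulk-HSCs gave 112.7, 85.8 and 81.4 CPM when young and 64.8, 69.3 and 80.5 CPM when aged, and only in that fraction did the ages not overlap. The averaged difference was -0.32 ± 0.14 on the log2 scale (SE; edgeR unadjusted p = 0.0301, adjusted p = 0.192), with within-fraction values of -0.32 for LT-HSCs, -0.27 for ST-HSCs and -0.38 for bulk-HSCs. The exact permutation test of age within fractions gave p = 0.028 for Hoxa9, unadjusted for the 7 genes so tested. Hoxa9 therefore did not pass the threshold over all genes.

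Hoxa10, the most 5′ member and a regulator of HSC and progenitor expansion, had age differences of opposite sign in LT-HSCs and in the other fractions, none of them past the threshold. It measured 45.2, 31.2 and 58.8 CPM in young LT-HSCs and 28.3, 33.9 and 29.3 CPM in aged LT-HSCs, with overlap. In ST-HSCs it measured 17.9, 41.0 and 22.3 CPM when young and 55.3, 55.7 and 42.5 CPM when aged, with no overlap. In bulk-HSCs it measured 24.3, 32.9 and 28.5 CPM when young and 48.8, 43.3 and 35.7 CPM when aged, again with no overlap. The age differences were -0.56 ± 0.29 for LT-HSCs, 0.92 ± 0.29 for ST-HSCs and 0.58 ± 0.29 for bulk-HSCs (log2, SE; edgeR adjusted p = 0.638, 0.192 and 0.428). Without young ST-HSC library 2, which read 41.0 CPM, the ST-HSC difference was 1.35 and was called (edgeR adjusted p = 0.0356). The difference between the LT-HSC and ST-HSC age effects was -1.48 ± 0.42 (95% interval -2.35 to -0.61). Its unadjusted edgeR p was 0.00226 and its adjusted p was 0.855, in a comparison where 0.0% of all genes were called and 502 had an unadjusted p below 0.05. DESeq2 gave -1.50 with an adjusted p of 0.0480 and called 83 genes there. Without the 2 libraries that lacked many genes the value was -1.14 (edgeR adjusted p = 1). Against bulk-HSCs the LT-HSC age effect differed by -1.14 ± 0.41 (edgeR unadjusted p = 0.0135, adjusted p = 0.730), where 0.00781% of genes, 1 gene, was called. Both comparisons use the same LT-HSC libraries. In the comparison with bulk-HSCs Hoxa10 was not alone: the 7 members ran from -1.14 to 1.04. There 2 members had an unadjusted edgeR p below 0.05, beside 746 of 12808 genes.

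**Figure D2:**
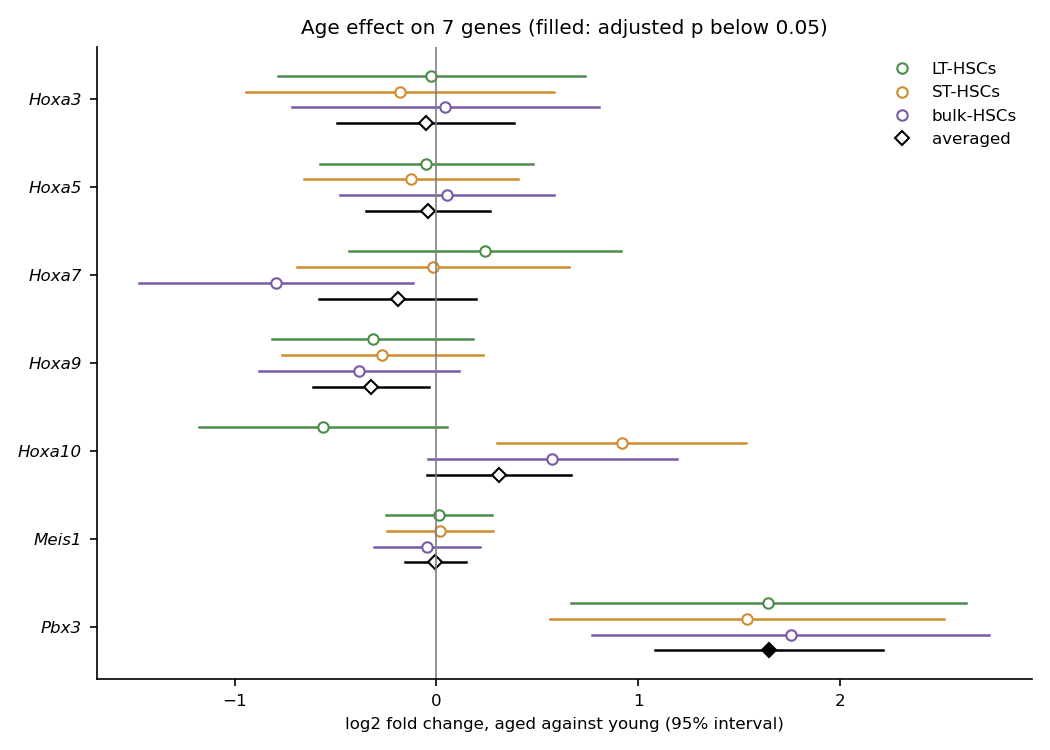
Age difference (aged minus young, log2 fold change, with 95% intervals from edgeR) of the 7 genes in each fraction (circles) and averaged over fractions (diamonds), filled where the adjusted p is below 0.05. Pbx3 lay at 1.54 to 1.76 in all 4 comparisons, Meis1 close to 0, and Hoxa10 at -0.56 in LT-HSCs against 0.92 in ST-HSCs.

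The more anterior members did not pass the test for age in any fraction. Hoxa7, which lies beside Hoxa9, measured 25.3, 24.4 and 21.1 CPM in young LT-HSCs and 24.98, 33.9 and 24.8 CPM in aged LT-HSCs. Its values in ST-HSCs were 26.4, 33.5 and 13.6 CPM when young and 21.9, 26.2 and 24.7 CPM when aged. In bulk-HSCs the young libraries gave 35.6, 43.8 and 23.3 CPM and the aged ones 17.9, 24.3 and 17.04 CPM, with overlap at 1 library. That difference was -0.80 ± 0.32 on the log2 scale (edgeR unadjusted p = 0.0240, adjusted p = 0.270). The ratio of aged to young mean CPM of Hoxa7 was 1.18 for LT-HSCs and 0.576 for bulk-HSCs. Of the exon bases of Hoxa7, 586 (20.4%) are shared with the opposite-strand gene Hoxaas3, and the sources used here do not give the strand setting of the counting, so reads there cannot be assigned to 1 of the genes.

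Hoxa5, known for roles in lineage choice of myeloid and erythroid progenitors, measured 52.1, 42.3 and 54.4 CPM in young LT-HSCs and 39.1, 61.5 and 43.2 CPM in aged LT-HSCs. It measured 27.9, 34.0 and 44.4 CPM in young ST-HSCs and 33.2, 37.8 and 26.4 CPM in aged ST-HSCs. In bulk-HSCs it measured 39.0, 25.1 and 42.7 CPM when young and 39.1, 34.2 and 37.4 CPM when aged. The ages overlapped in each fraction, and the averaged difference was -0.040 ± 0.15 (log2, SE; edgeR adjusted p = 0.935).

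Hoxa3, the most 3′ member and known for patterning of the pharyngeal region, measured 33.7, 20.3 and 40.2 CPM in young LT-HSCs and 29.4, 37.3 and 25.8 CPM in aged LT-HSCs. It measured 32.9, 19.8 and 27.9 CPM in young ST-HSCs and 18.7, 26.9 and 25.6 CPM in aged ST-HSCs. In bulk-HSCs it measured 44.7, 14.7 and 23.5 CPM when young and 33.7, 28.3 and 23.5 CPM when aged. Again the ages overlapped, with an averaged difference of -0.053 ± 0.21 (log2, SE; edgeR adjusted p = 0.940). Some Hoxa3 exon bases are shared with other annotated genes, 503 with the opposite-strand Hoxaas2 and 482 with Gm28308 on the same strand.

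Within single fractions 0 of the 7 members passed the adjusted edgeR test for age, where 0.445% of all genes passed for LT-HSCs, 0.851% for ST-HSCs and 1.98% for bulk-HSCs. At an unadjusted p below 0.05 there was 1 member for LT-HSCs (Pbx3), 2 for ST-HSCs (Pbx3 and Hoxa10) and 2 for bulk-HSCs (Pbx3 and Hoxa7), against 8.81%, 9.67% and 13.3% of all genes. DESeq2 called Pbx3 alone in each. Aged and young libraries did not overlap for 1 of 7 members for LT-HSCs, 2 for ST-HSCs and 3 for bulk-HSCs, against 16.1%, 17.8% and 22.7% of all genes. The median averaged difference was -0.040 for the 7 members and 0.037 for all genes (log2).

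LT-HSCs were next compared with ST-HSCs and with bulk-HSCs at each age, and 0 of the 7 members passed the adjusted edgeR test in any of these 4 comparisons, nor did DESeq2 call any. In young mice LT-HSC minus ST-HSC differences of the members ran from -0.19 to 0.73 on the log2 scale (smallest edgeR adjusted p = 0.363), where 0.429% of all genes were called. In aged mice they ran from -0.75 to 0.56 (smallest edgeR adjusted p = 1), where 0.00781% of all genes were called. Hoxa10 held 1 end of each range: its LT-HSC minus ST-HSC difference was 0.73 in young and -0.75 in aged mice (edgeR unadjusted p = 0.0224 and 0.0207, adjusted p = 0.363 and 1). Hoxa5 was higher in LT-HSCs by 0.49 in young and 0.56 in aged mice (edgeR adjusted p = 0.526 and 1). Against bulk-HSCs, which contain LT-HSCs, the members ran from -0.54 to 0.66 in young mice (smallest edgeR adjusted p = 0.397, with 0.273% of genes called). In aged mice they ran from -0.48 to 0.50 (smallest edgeR adjusted p = 1, with 0.0% of genes called). An unadjusted edgeR p below 0.05 counted 1 and 2 members against ST-HSCs (young and aged), beside 10.4% and 3.41% of all genes, and 1 and 0 members against bulk-HSCs, beside 11.5% and 3.29%. Aged LT-HSC and ST-HSC libraries did not overlap for 3 of 7 members, Hoxa5 (higher in LT-HSCs), Hoxa10 and Meis1 (both lower), against 15% of all genes. Aged LT-HSC and bulk-HSC libraries did not overlap for Hoxa5 and Hoxa7 (higher) and Hoxa10 (lower), 3 of 7 against 15.1%. In young mice 0 of 7 members did not overlap between LT-HSCs and ST-HSCs (12.1% of all genes), and against bulk-HSCs it was 1, Pbx3, which was higher in LT-HSCs (12.2%).

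Levels between genes were compared as CPM per kilobase of exon, averaged over the 18 libraries. The length was that of all exon bases in GENCODE M21, 1877 for Hoxa5, 874 for Hoxa6 and 5580 for Hoxa9. The annotation release used for counting is not given, so the order of genes depends on the lengths used. Meis1 was the most abundant of the 7, at 47.6, followed by Hoxa5 at 21.1, Hoxa9 at 13.97, Hoxa10 at 11.5, Hoxa7 at 8.94, Pbx3 at 4.87 and Hoxa3 at 4.68. On this scale Pbx3 was below Hoxa3 in young libraries on average, at 2.36, and reached 7.37 in aged libraries. Along the cluster, Hoxa6 stood at 13.6, Hoxa4 at 4.18 and Hoxa2 at 2.37. Hoxa11 was at 0 in 17 libraries and Hoxa13 at 0 in all 18. The genes from Hoxa2 to Hoxa10 were thus read in these HSCs, and those measured at the 5′ end of the cluster were at or near 0. The summed level of the 10 Hoxa genes from Hoxa2 to Hoxa13 was 82.4 ± 10.8 CPM per kilobase in young and 78.3 ± 12.2 in aged libraries (SD over 9 libraries of 3 fractions). With these lengths Hoxa5 supplied 26.2% of it, Hoxa9 17.6%, Hoxa6 16.5% and Hoxa10 14.5%. In CPM without length, Hoxa9 averaged 86.7 in young and 69.3 in aged libraries, and Hoxa5 40.2 and 39.1. Of 12 other genes of the cluster 5 passed the filter, 2 higher and 3 lower with age on average, and 0 were called by edgeR (0 also at an unadjusted p below 0.05). Hoxa6 ranged from 7.81 to 21.9 CPM in young and 4.02 to 18.1 CPM in aged libraries, Hoxa4 from 2.38 to 13.2 and 2.56 to 11.2 CPM, and the antisense gene Hoxaas3 from 3.86 to 16.6 and 4.51 to 9.56 CPM.

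**Figure D3:**
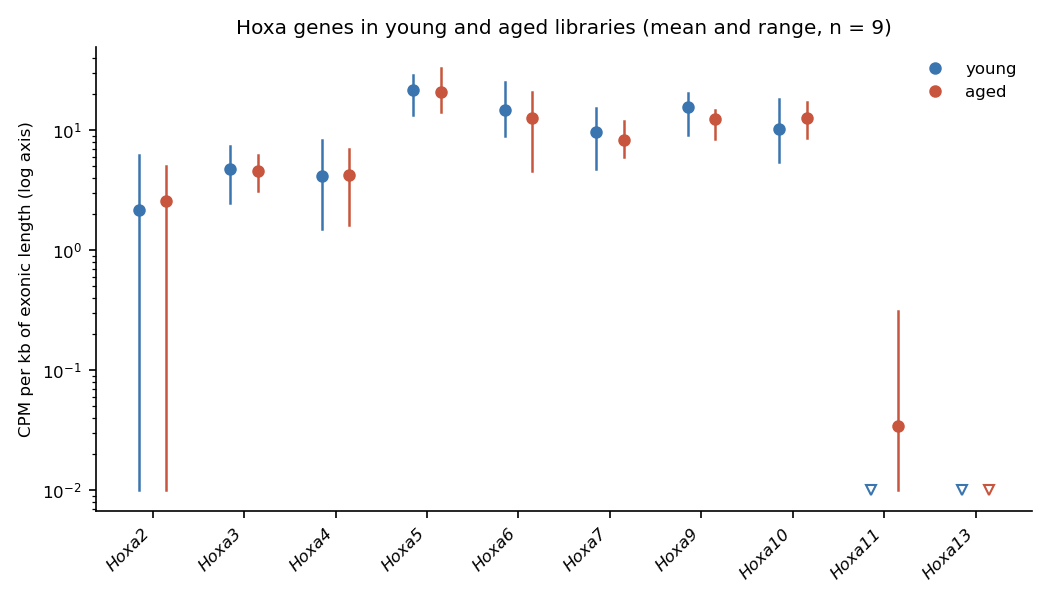
Level of each Hoxa gene in CPM per kilobase of exon (log axis), in order along the cluster, for young and aged libraries. Dots are means and lines run from the lowest to the highest of 9 libraries, lines that reach 0.01 mean that a library was at 0, and open triangles mark genes listed at 0 in all 9. On this scale Hoxa5 had the highest mean, 21.1 over both ages, and Hoxa13 was at 0 throughout.

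Other TALE genes were measured beside Meis1 and Pbx3, in a list of 9 cofactor genes that also held Pbxip1, which is not of the TALE class. Of these 9 genes 8 passed the filter, Pbxip1 among them. All 8 had values above 0 for the averaged age difference, with a median of 0.35 against 0.037 for all genes (log2). Of all genes 7010 of 12808 were above 0. Within fractions 5 of the 8 were higher with age for LT-HSCs, 6 for ST-HSCs and 6 for bulk-HSCs. Aged libraries had more detected genes, and the part of this in the 8 values was not tested. The 1 gene called was Meis3. Meis3, a sparsely expressed relative of Meis1, ranged from 0 to 8.88 CPM in young and 7.36 to 16.03 CPM in aged libraries. Its averaged difference was 1.87 ± 0.52 (edgeR adjusted p = 0.0391). The fractions differed in size: the ratio of aged to young mean CPM was 1.71 for LT-HSCs, 1.89 for ST-HSCs and 14.97 for bulk-HSCs. Young bulk-HSC libraries held only 24, 0 and 7 counts of Meis3. The Meis3 call was lost when any of 15 of the 18 libraries was left out (largest adjusted p = 0.0800), and with detected genes as a covariate (2.22, edgeR adjusted p = 0.327). Meis2 was at 0 in 6 of the 18 libraries, among them all young ST-HSC libraries. Pbx2 measured 41.1 to 105.5 CPM in young and 64.4 to 86.7 CPM in aged libraries, and Pbxip1, which encodes a Pbx-binding protein, 64.2 to 107.5 and 76.2 to 98.9 CPM. Tgif1, a TALE repressor, measured 11.7 to 63.2 CPM in young and 34.1 to 63.0 CPM in aged libraries, and none of these 3 genes was called.

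**Figure D4:**
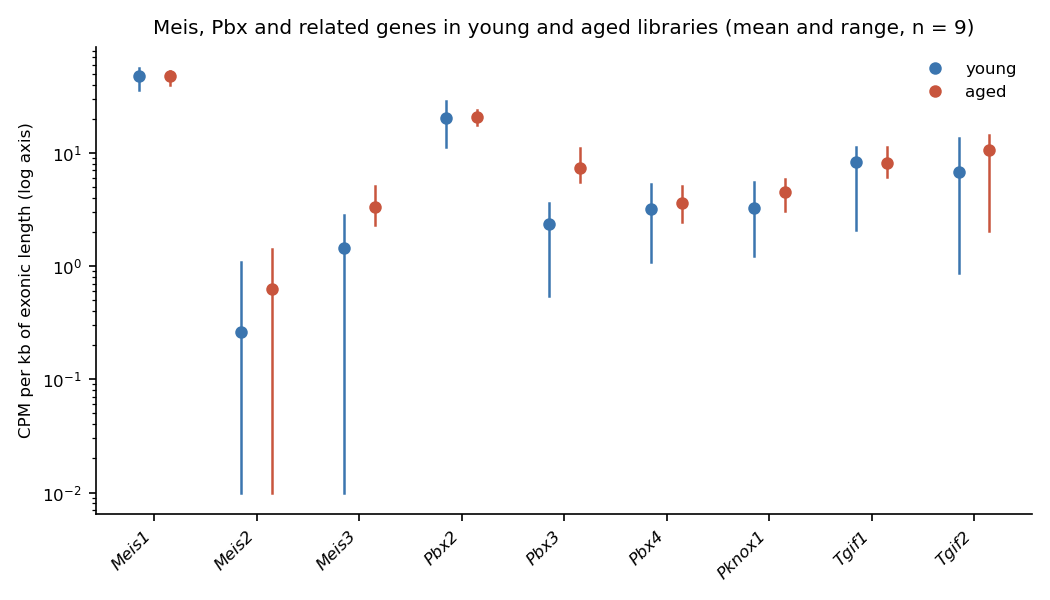
Level of the Meis, Pbx and other TALE genes in CPM per kilobase of exon (log axis) for young and aged libraries. Dots are means and lines run from the lowest to the highest of 9 libraries, and lines that reach 0.01 mean that a library was at 0. Meis1 led at a mean of 47.6 over both ages, and Pbx3 went from 2.36 in young to 7.37 in aged libraries.

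The make-up of the Meis family was compared as shares of its summed CPM per kilobase. Meis1 formed 96.5% ± 2.91 of the sum in young and 92.2% ± 1.95 in aged libraries (SD over 9 libraries), with Meis3 at 2.91% and 6.54%. No test was run on these shares, which restate the levels above on a common scale.

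Genes known to regulate Hoxa transcription, among them the chromatin factors that act on the cluster, were taken as a list of 18. The 3 Cdx genes in it, inducers of Hox genes in the embryo, did not pass the filter. Of the 15 tested, 4 were higher and 11 lower with age on average, with a median log2 difference of -0.20. Of all genes 7010 of 12808 were higher. The averaged test called 1 of the 15, beside 6.75% of all genes. Kmt2a, the histone methyltransferase that maintains Hoxa expression, fell by 0.36 on the log2 scale (edgeR adjusted p = 0.00778). With detected genes as a covariate it was -0.36 and not called (edgeR adjusted p = 0.228). It measured 777 to 1152 CPM in young and 627 to 881 CPM in aged libraries, with overlap. Aff4, a subunit of the super elongation complex, measured 304.5 to 408 CPM in young and 301 to 377 CPM in aged libraries. Kat6a, a histone acetyltransferase, measured 289 to 856 and 249 to 354 CPM, and neither was called.

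Of 17 genes reported as targets of Hoxa9 and Meis1, all were tested, and 8 were higher and 9 lower with age on average (median -0.043). The averaged edgeR test called 4 of them higher and 3 lower, beside 6.75% of all genes called. An unadjusted edgeR p below 0.05 counted 12 of the 17, beside 2519 of 12808 genes. This list, like the cofactor and regulator lists above, was chosen with earlier results of these data known. Its counts therefore cannot show whether such genes change with age more often than others. The 4 called higher were Id2, Mef2c, Trib2 and Bcl2. Id2, an inhibitor of basic helix-loop-helix factors, rose by 2.05 on the log2 scale, and Mef2c, a MADS-box factor of myeloid and lymphoid cells, by 1.24. Trib2, a pseudokinase with leukemic activity, rose by 0.86, and Bcl2, a survival factor, by 0.63. The edgeR adjusted p was 0.0168 for Id2, 0.00214 for Trib2 and 0.000271 for Bcl2. Mef2c measured 73.2 to 199 CPM in young and 230 to 348 CPM in aged libraries, with no overlap. The 3 called lower were Flt3, Cd34 and Myb. Flt3, the cytokine receptor of multipotent progenitors, fell by 1.32, Cd34, a sialomucin of progenitors, by 1.06, and Myb, a progenitor transcription factor, by 0.22. Cd34 measured 105 to 285 CPM in young and 51.5 to 123 CPM in aged libraries and was called in each fraction (edgeR adjusted p = 0.0206 for LT-HSCs, 0.0185 for ST-HSCs and 0.00940 for bulk-HSCs). The proteins of Cd34 and Flt3 belong to the study's marrow staining panel, and the 2 genes are also among the progenitor markers above. With detected genes as a covariate, Bcl2, Mef2c and Cd34 stayed called on average (edgeR adjusted p = 0.0342, 0.0427 and 0.0217), and 4 genes were not called: Id2 (1.36), Trib2 (0.74), Flt3 (-1.27) and Myb (-0.20), with edgeR adjusted p = 0.708, 0.249, 0.289 and 0.518. The within-fraction Cd34 calls were lost with that covariate (edgeR adjusted p = 0.197, 0.123 and 0.234 for LT-, ST- and bulk-HSCs) and with only the groups compared (0.121, 0.0522 and 0.0750). With 1 library left out at a time, Cd34 lost its call in 5 of 6 fits for LT-HSCs and 4 of 6 for ST-HSCs, and Myb lost the averaged call in 16 of 18. Hlf (834 to 1955 CPM over all libraries), Lmo2 (722 to 946 CPM) and Msi2 (589.5 to 925 CPM), the most abundant genes of the list, were not called. Between fractions, Sox4 was the single called gene of these lists, with an LT-HSC minus ST-HSC difference of -0.84 in young mice (log2; edgeR adjusted p = 0.00376), with 105 to 133 CPM against 198 to 220 CPM, and not called with only those 6 libraries (edgeR adjusted p = 0.257).

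**Figure D5:**
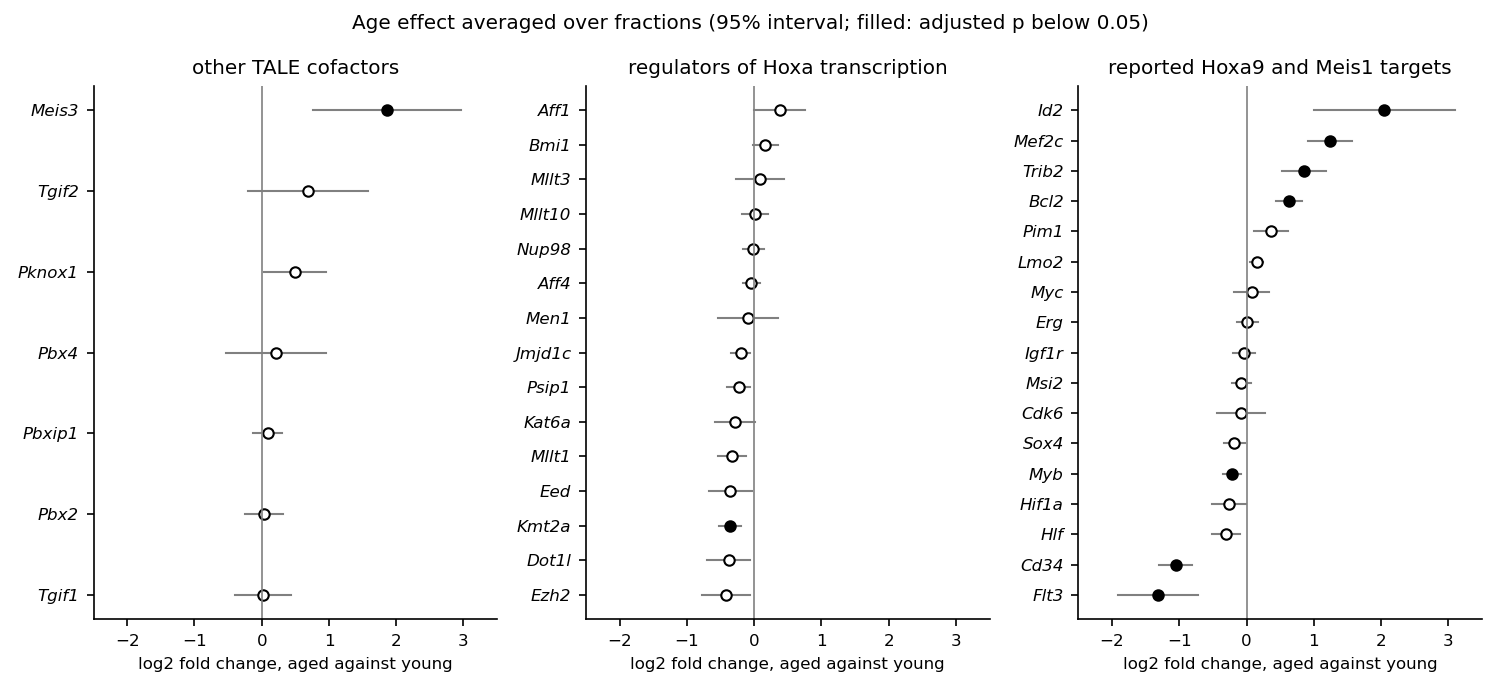
Averaged age difference (aged against young, log2 fold change, with 95% intervals from edgeR) of the tested genes in the cofactor, regulator and target lists, with filled points for an adjusted p below 0.05. Meis2 is not drawn, since it was at 0 in all young ST-HSC libraries. The called genes run from Id2 at 2.05 to Flt3 at -1.32, and Kmt2a is the called regulator.

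The genes most like each member over the 18 libraries were found by Spearman's rho of log2 CPM, among tested genes of 10 CPM or more on average. These values share library depth, age and fraction, were picked as the highest of many, and are descriptions. For Pbx3 they were Stat3 (0.89), Hacd4 (0.88) and Fyb (0.88), and after removal of group means the Pearson correlation was 0.11 for Stat3, 0.66 for Hacd4 and 0.72 for Fyb. For Hoxa9 they were P4ha1 (0.80), Stard10 (0.78) and Psip1 (0.78), and for Hoxa10 Mlph (0.86), Sec14l2 (0.77) and Rsl1 (0.75). For Hoxa7 they were Zbtb7b (0.86), Hps4 (0.82) and Eif2ak4 (0.79), and for Hoxa5 Rgp1 (0.83), Rbsn (0.80) and Ndufb6 (0.79). Hoxa3 was most like Fdxacb1 (0.83), Zmiz1 (0.81) and Fam53a (0.79), and Meis1 most like Galnt4 (0.80), Abhd4 (0.77) and Ddx52 (0.77). Among the members themselves, Hoxa3 and Hoxa5 had a rho of 0.53, Hoxa9 and Hoxa10 of -0.50 and Hoxa9 and Pbx3 of -0.60 (0.01 within groups by Pearson's r).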

How the data were processed

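RNA was sequenced from LT-HSCs, ST-HSCs and bulk-HSCs of young and aged mice, 3 libraries per group. Cells were enriched for c-Kit and sorted in 2 passes, and libraries were made from ribosome-depleted total RNA. Per the labels and the study's methods, the authors aligned reads to mm10 with HISAT2, and transcripts were assembled and quantified by StringTie 1.3.4d. The processing notes also name SAMtools 1.7. The authors deposited counts per gene symbol, and the annotation release and strand setting are not given in the sources used here.

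Counts were normalized by TMM and tested with edgeR 4.0.16 (quasi-likelihood F test, R 4.3.3, limma 3.58.1) in 1 model of 6 group means with 12 residual degrees of freedom. Genes with a mean of at least 1 CPM (12808) were tested in 10 comparisons. Within each comparison p-values were adjusted by Benjamini-Hochberg over all these genes, with no correction for the number of comparisons. An adjusted p below 0.05 was called. Levels are TMM-scaled CPM, with errors as SD over libraries. Two-sided exact permutation tests used CPM. Alternatives were other scalings, no filter, only the groups compared, a replicate block, DESeq2 1.42.0 and leaving out each library. Leaving out 2 libraries with many missing genes, a covariate of detected genes and the bulk-HSC interaction were added after seeing the data. Scripts were tested on simulated data. Positions are from GENCODE M21, in which 23376 of 24421 symbols matched, and promoter and microRNA sequences are RefSeq's (GRCm38.p6).

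The 7 members and all lists were chosen with earlier results of these data known, and some genes are not reported here. Named besides the members are list genes called in any comparison, the 3 genes of highest mean CPM in each list, the 3 genes most like each member and Hoxb5. Counts sum to 16495048 to 22973844 a library, and floors of 3 counts cover counting error only.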

Additional observations from a re-analysis of the deposited data

How the results depend on the processing

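The averaged Pbx3 difference kept its direction in all alternatives run and its call in all but the covariate of detected genes (0.94, edgeR adjusted p = 0.386). Over the 18 fits that each left out 1 library it was 1.49 to 1.77 (adjusted p from 3.476e-05 to 0.00285). Of 832 fold changes under alternatives, over 46 results, 712 kept direction and side of the threshold, 83 lost and 8 gained the call, and 29 changed sign, all of them of Meis1, Hoxa3 or Hoxa5, which are not called. With no filter 2 genes were called between aged LT-HSCs and ST-HSCs. With only the groups compared, age called 9 genes for LT-HSCs, 27 for ST-HSCs and 139 for bulk-HSCs, where Pbx3 became 1 called member (1.76, adjusted p = 0.0453). LT-HSCs against ST-HSCs then called 5 genes (young) and 3 (aged), LT-HSCs against bulk-HSCs 0 and 1, and the bulk-HSC interaction 0. DESeq2 called 290 genes for age for LT-HSCs, 448 for ST-HSCs, 741 for bulk-HSCs and 1494 averaged, with 1 member (Pbx3) in each fraction. It called 387 and 55 genes for LT-HSCs against ST-HSCs (young and aged), 438 and 32 against bulk-HSCs, and 83 (1 member, Hoxa10) and 122 for the interactions.

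With detected genes as covariate, age called 23, 54 and 82 genes in LT-, ST- and bulk-HSCs and 153 averaged, with 0 members, and young LT-HSCs against bulk-HSCs called 62. Its sign changes were Meis1 in LT-HSCs (-0.034) and ST-HSCs (-0.026) and the averaged Hoxa3 (0.39) and Hoxa5 (0.23). Without young LT-HSC library 3 and young ST-HSC library 3, age called 493 genes in bulk-HSCs, Pbx3 as 1 member each for LT-HSCs (1.60, edgeR adjusted p = 0.0350) and for the bulk fraction (1.76, edgeR adjusted p = 0.00215), and 30 and 3 genes between LT-HSCs and ST-HSCs (young and aged), 97 for young LT-HSCs against bulk-HSCs and 7 for the bulk-HSC interaction. Meis1 in LT-HSCs was then -0.14, and the averages were 0.029 for Hoxa3 and 0.048 for Hoxa5. Meis1 in LT-HSCs was -0.0047 with RLE scaling, -0.019 with library size alone and -0.0045 with DESeq2, beside 0.014 as reported.

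Leaving out 1 library gave 15 to 182 genes for age for LT-HSCs, 45 to 120 for ST-HSCs, 114 to 237 for bulk-HSCs and 659 to 1051 averaged. It gave 35 to 127 and 0 to 2 for LT-HSCs against ST-HSCs (young and aged), 33 to 109 and 0 to 1 against bulk-HSCs, and 0 to 11 and 0 to 20 for the interactions. Members called in ST-HSCs were 0 to 1, Hoxa10 without young ST-HSC library 2 (1.35, adjusted p = 0.0356). Averaged differences ran from -0.053 to 0.050 for Meis1, -0.15 to 0.12 for Hoxa3 and -0.11 to 0.024 for Hoxa5. Within fractions Meis1 ran from -0.13 to 0.18 (LT-HSCs), -0.022 to 0.040 (ST-HSCs) and -0.12 to 0.044 (bulk-HSCs). Of these 18 fits, Meis3 lost its averaged call in 15 and Myb in 16. Of the 6 fits without 1 of a fraction's libraries, Cd34 lost its call in 5 (LT-HSCs) and 4 (ST-HSCs), Mef2c in 6 (ST-HSCs) and 3 (bulk-HSCs) and Trib2 in 5 (ST-HSCs). Pairing was checked on deviations of log2 CPM from the group mean over the tested genes, between groups of the same age. On these deviations same-numbered libraries of different groups correlated at -0.043 to 0.135 over 18 pairs (2 above 0.1). Different-numbered ones correlated at -0.125 to 0.072 over 36 pairs (0 above 0.1). The deviations of same-numbered LT-HSC and ST-HSC libraries correlated at 0.015, 0.135 and 0.103 in young and 0.042, 0.051 and 0.085 in aged mice. Whether they share mice is not given, and the main model did not use the numbers as pairs. With the replicate block 855 genes were called for age averaged, Pbx3 stayed called (1.71, adjusted p = 0.00103), Meis3 lost its call (adjusted p = 0.0521) and the bulk-HSC interaction called 0 genes. Unless the alternative's own construction shows it, the cause of a change was not tested. Depth limits most the genes at or near 0 counts, such as Hoxa11.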
